A study of Mus musculus with 12 samples.

Results

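The interleukin receptors examined here are 10 genes: the IL-13 and IL-4 receptor chains Il13ra2, Il13ra1 and Il4ra, the common gamma chain Il2rg, the IL-7 receptor Il7r, the cytokine Il15 and its receptor chain Il15ra, the IL-10 receptor chains Il10ra and Il10rb, and the IL-17 receptor Il17ra. They were chosen by name, as every array probe that the platform's annotation assigns to 1 of these symbols. The annotation named a probe for 9 of the 10, out of 19057 genes with a named probe. No probe was named for Il2rg, which was not analysed here. The 9 genes had 22 probes, of which 13 passed the detection filter, 7 were detected on no array and the remaining 2 were detected on too few arrays to be tested.

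RNA was measured on 12 Illumina bead arrays of primary cardiac fibroblasts from female C57/BL6 mice aged 10 to 16 weeks. The fibroblasts were grown in medium with fetal calf serum. 4 arrays held untreated cells (control), 4 held cells given CCN2 at 200 nmol/L for 48 h and 4 held cells given GDF15 at 500 nmol/L for 48 h. CCN2 (connective tissue growth factor) is a protein that cells secrete into their matrix, and GDF15 is a cytokine of the TGF-beta superfamily. The control labels give no time, and the treatment protocol describes 1 culture period for cells with and without the proteins. The study asked which transcripts each protein changed relative to untreated cells. The labels do not name separate cultures or mice behind the 4 arrays of a group, so the p-values below reflect only how much these arrays vary, and that variation may be technical.

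IL-4 and IL-13 are the cytokines of type 2 immunity. Il4ra pairs with the common gamma chain in the receptor for IL-4 alone, and with Il13ra1 in the receptor that binds both cytokines on fibroblasts and other cells outside the blood, and both receptors signal through JAK kinases and STAT6. Il13ra2 binds IL-13 with high affinity and is best known as a decoy that takes up the cytokine. The common gamma chain also serves the receptors for IL-7 and IL-15. Il15ra presents IL-15 to neighbouring lymphocytes. Il10ra is the ligand-binding chain for IL-10, Il10rb is a chain shared by IL-10, IL-22 and the lambda interferons, and Il17ra is the chain common to the receptors of several IL-17 cytokines.

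Signals are the deposited non-normalized intensities of a probe and have no absolute scale, so levels are compared between groups for 1 probe and never between probes. A probe counts as detected on an array when its detection p-value against the array's negative control probes is under 0.05. Differences are on the log2 scale after background correction and quantile normalization, with the standard error (SE) of a limma fit to all 12 arrays, and adjusted p-values cover all 20445 tested probes. A change is called at an adjusted p under 0.05. A gene with several tested probes is represented by its brightest.

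After CCN2, the IL-13 receptor chains rose and the transcripts of Il15, Il7r and Il10ra fell. The number of genes called higher than control was 4 (Il13ra2, Il13ra1, Il4ra and Il15ra) and the number called lower was 4 (Il7r, Il10ra, Il10rb and Il15). Il17ra did not pass the test. Over all 11018 genes tested, 25.7% were called higher and 30.2% lower after CCN2, or 55.9% in either direction. After GDF15, 4 of the 9 genes were called higher (Il13ra2, Il13ra1, Il4ra and Il7r) and 2 lower (Il10ra and Il15), where 9.76% of all genes were called higher and 12.7% lower. In GDF15 against CCN2, 3 genes were called higher (Il7r, Il10ra and Il15) and 3 lower (Il13ra2, Il13ra1 and Il15ra), where 23.8% of all genes were called higher and 22% lower. Over all genes 45.9% were called in this comparison in either direction.

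Called differences of at least 2-fold after CCN2 were rises of 2 genes, Il13ra2 and Il13ra1, and falls of 2, Il7r and Il15, where 6.24% of all genes rose and 7.91% fell by that much. After GDF15 the fitted difference reached 2-fold in 1 gene, Il13ra2, a value against an undetected control whose limit was smaller, and no gene of the set fell by that much, where 1.29% of all genes rose and 1.3% fell. Il7r and Il15 were at least 2-fold higher in GDF15 than in CCN2, and Il13ra2 and Il13ra1 at least 2-fold lower, where 5.03% and 3.82% of all genes were. The 3 comparisons share arrays, so their values are given side by side and are not independent.

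The median log2 difference of the 9 genes was -0.31 after CCN2, beside -0.023 for all genes tested. After GDF15 it was 0.06, beside -0.018 for all genes. The groups' normalized values did not overlap for 8 of the 9 genes in CCN2 against control, where this held for 54% of all genes. They did not overlap for 5 of 9 in GDF15 against control, beside 25.8% of all genes, and for 6 of 9 in GDF15 against CCN2, beside 41.8%.

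**Figure D1:**
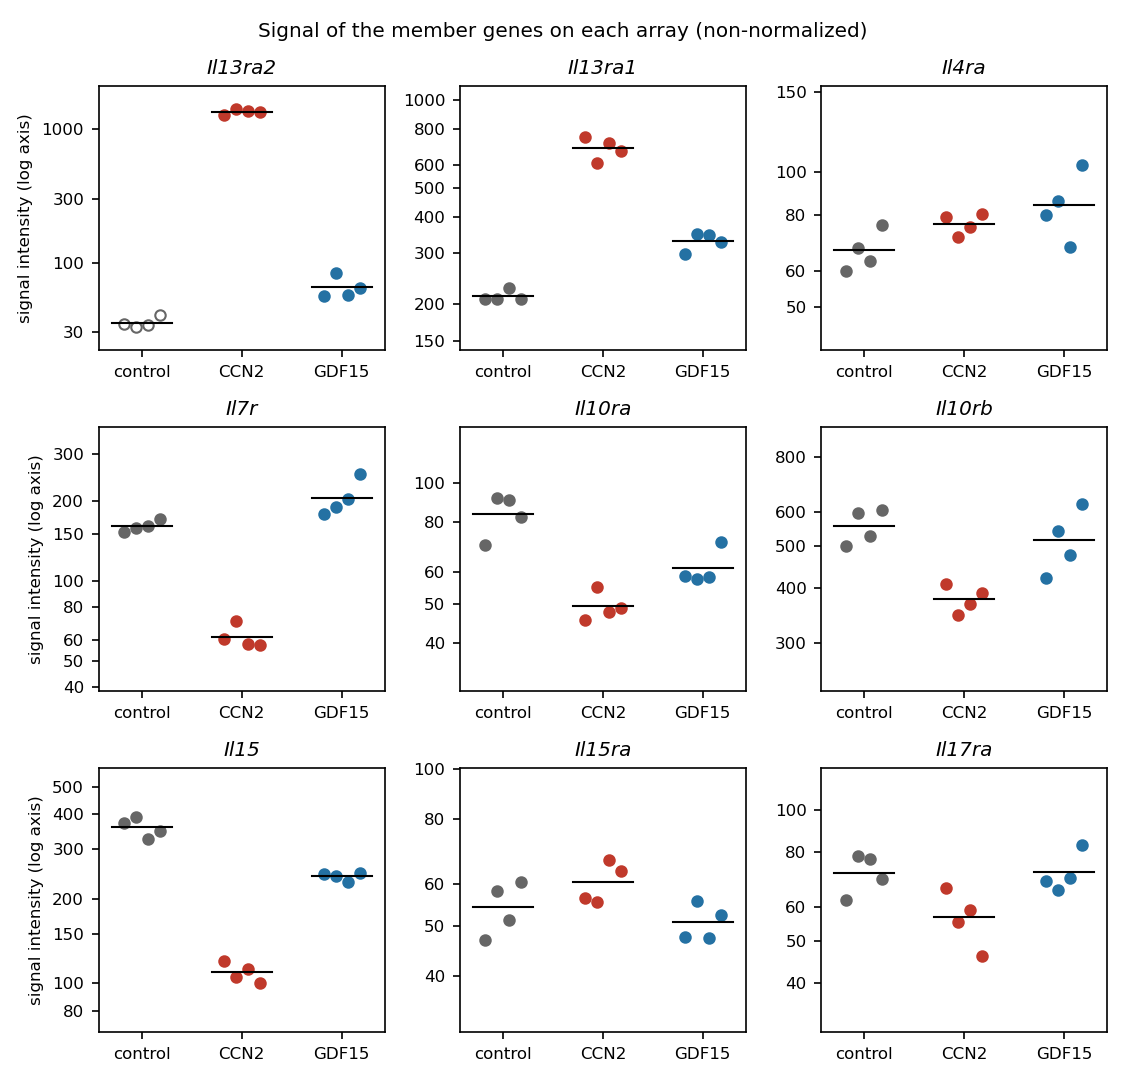
Signal intensity (non-normalized, log axis, 1 panel a gene with its own range) of the brightest tested probe of each gene on the 4 arrays of each group. Each point is an array, open where the probe was not detected, and the line is the group mean. Il13ra2 was undetected on all 4 control arrays and lay between 1289 and 1410 on the CCN2 arrays. Il7r was lowest on the CCN2 arrays and highest on the GDF15 arrays.

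Il13ra2, the high-affinity chain for IL-13, had the largest difference of the 9 genes after CCN2 and between GDF15 and CCN2. Its probe (ILMN_1246284) gave signals of 34.3, 32.8, 34.2 and 40.4 on the control arrays, 1289, 1410, 1385 and 1350 on the CCN2 arrays, and 56.5, 83.3, 57.1 and 64.3 on the GDF15 arrays. It was detected on none of the control arrays and on all 8 arrays of treated cells, and the 3 groups did not overlap. The ratio of mean signals to control, background included, was 38.3 for CCN2 and 1.84 for GDF15. Because control gives only a bound, the rise is also given as a limit on background-corrected and normalized values, from means of log2 values, with each control array set to the lowest such value of a detected probe where Il13ra2 lay below it. By this measure Il13ra2 was at least 62.7-fold higher after CCN2 and at least 1.74-fold higher after GDF15. The limits themselves were not tested. The limma fit, which used the undetected control values as they were, gave adjusted p = 4.91e-16 for CCN2 and 9.07e-06 for GDF15. The limit depends on the scale: with an offset of 50 in place of 16 it was 26.1 and 1.31, and without background correction 32.7 and 1.39. GDF15 arrays lay below CCN2 arrays by a log2 difference of -5.18 (SE 0.13, adjusted p = 1.35e-14).

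Il13ra1, the signalling chain for IL-13, changed in the same order of groups. Its probe (ILMN_2668696) gave signals of 208.8, 208.7, 227.2 and 208.6 in control, 747.2, 612.2, 716.1 and 669.6 after CCN2, and 298.1, 347.4, 345.3 and 327.8 after GDF15. Every CCN2 array lay above every GDF15 array, and every GDF15 array above every control array. The log2 difference from control was 2.08 after CCN2 (SE 0.087, adjusted p = 2.03e-12), a 4.24-fold rise, and 0.75 after GDF15 (SE 0.087, adjusted p = 6.4e-06), a 1.68-fold rise. The difference of GDF15 from CCN2 was -1.33 (SE 0.087, adjusted p = 1.41e-09).

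Il4ra, the chain that pairs with Il13ra1, rose by less. Its probe (ILMN_2738433) gave signals of 60.0, 67.5, 63.3 and 76.2 in control, 79.2, 71.4, 75.1 and 80.5 after CCN2, and 80.0, 85.9, 67.8 and 103.3 after GDF15. These signals overlap between the groups, and an exact two-sided permutation test of their means gave p = 0.0857 for CCN2 and p = 0.0571 for GDF15 against control, where 4 against 4 arrays cannot go below 0.0286. On normalized values the CCN2 arrays lay above all control arrays, with a log2 difference of 0.57 (SE 0.12, adjusted p = 0.000781). The GDF15 arrays still overlapped control by 1 array, with a difference of 0.51 (SE 0.12, adjusted p = 0.00591). The treatments did not differ beyond the spread between arrays, with a difference of GDF15 from CCN2 of -0.06 (95% confidence interval -0.32 to 0.20, adjusted p = 0.742).

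The promoter windows of Il13ra2 and Il13ra1 are shown because these chains rose most and in the same order of groups. Each window, from RefSeq on GRCm38.p6, runs 5′ to 3′ on the gene's strand. It spans 250 bases before a start position to 50 bases after it. For Il13ra2, Il13ra1 and Il4ra this position is the gene's start, and for Il7r and Il15ra it lies inside the gene. The Il13ra2 window is chrX:147429143-147429442, minus strand, and the Il13ra1 window is chrX:36111858-36112157, plus strand. Capitals mark a match to 1 of the motifs searched on both strands: the STAT6 consensus, TTCNNNGAA (the site of other STAT factors), TGANTCA (AP-1) and the NF-kB consensus.
Il13ra2: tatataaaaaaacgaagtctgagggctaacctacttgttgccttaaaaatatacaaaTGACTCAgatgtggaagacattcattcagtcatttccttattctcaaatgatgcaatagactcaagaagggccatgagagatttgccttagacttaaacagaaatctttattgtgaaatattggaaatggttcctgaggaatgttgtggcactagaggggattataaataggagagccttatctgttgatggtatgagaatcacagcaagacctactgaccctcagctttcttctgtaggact
Il13ra1: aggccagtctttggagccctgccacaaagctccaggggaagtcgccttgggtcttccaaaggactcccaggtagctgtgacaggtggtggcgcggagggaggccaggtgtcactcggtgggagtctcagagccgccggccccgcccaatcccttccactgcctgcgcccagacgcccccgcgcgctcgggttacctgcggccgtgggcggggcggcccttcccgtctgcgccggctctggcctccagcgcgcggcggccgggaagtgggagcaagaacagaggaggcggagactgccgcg
The Il13ra2 window held 1 match, TGACTCA at -193 to -187 from the start, a motif found in 7.81% of the 32851 mouse promoter windows. No searched motif occurred in the Il13ra1 window. The windows also differ in composition, with 37.7% G and C bases and 1 CpG in Il13ra2 against 71% and 28 CpGs in Il13ra1, where the median window had 52.7% and 7. Il4ra, with 62% and 25 CpGs, held 1 match to the NF-kB consensus at 21 to 30, a motif found in 8.46% of windows. Il15ra has 2 windows, and 1 of them also held an AP-1 match, TGAGTCA at -30 to -24 from that window's start position inside the gene. Such matches describe letters and were not measured as binding.

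Il7r, the receptor for the lymphocyte growth factor IL-7, was the gene of the set that the treatments moved in opposite directions. Its tested probe (ILMN_2680827) gave signals of 153.4, 158.1, 161.2 and 171.5 in control, 60.6, 70.7, 58.0 and 57.6 after CCN2, and 178.5, 189.8, 203.2 and 253.7 after GDF15. All CCN2 arrays lay below all control arrays, and all GDF15 arrays above them. The log2 difference was -1.53 after CCN2 (SE 0.11, adjusted p = 1.92e-09), or 2.88-fold lower, and 0.48 after GDF15 (SE 0.11, adjusted p = 0.00368), or 1.39-fold higher. The contrast between the treatments was 2.00 (SE 0.11, adjusted p = 9.27e-11). The other 4 probes of Il7r did not pass the filter: ILMN_2659739 was detected on 1 control and 1 GDF15 array, ILMN_1237567 on 1 GDF15 array, and 2 on none, so the change rests on 1 probe.

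The promoter window of Il7r, chr15:9529827-9530126 on the minus strand of GRCm38.p6, is shown because of this opposite movement, with its motif match in capitals.
Il7r: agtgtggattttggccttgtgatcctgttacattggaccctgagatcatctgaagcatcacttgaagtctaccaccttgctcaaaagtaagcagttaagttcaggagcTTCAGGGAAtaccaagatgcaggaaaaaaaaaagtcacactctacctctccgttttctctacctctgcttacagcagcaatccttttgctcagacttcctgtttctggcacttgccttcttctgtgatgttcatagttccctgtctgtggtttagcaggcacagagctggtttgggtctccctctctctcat
The match, TTCAGGGAA at -142 to -134 from a start position inside the gene, has the form TTCNNNGAA. This form was found in 8.30% of promoter windows. The STAT6 consensus, found in 6.95% of windows, had no match in the 7 windows available, which cover 6 of the receptor genes. The window has 45.7% G and C bases and 1 CpG.

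Il15, a cytokine that sustains natural killer and memory T cells, fell after both treatments and further after CCN2. Its brightest probe (ILMN_2610234) gave signals of 371.3, 389.6, 326.8 and 349.1 in control, 120.1, 105.7, 112.5 and 100.3 after CCN2, and 244.8, 240.9, 229.9 and 247.1 after GDF15. The groups did not overlap, with CCN2 lowest, GDF15 between and control highest. The log2 difference from control was -1.64 after CCN2 (SE 0.10, adjusted p = 5.22e-10), or 3.11-fold lower, and -0.56 after GDF15 (SE 0.10, adjusted p = 0.000766), or 1.47-fold lower. GDF15 arrays were 1.08 higher than CCN2 arrays on the log2 scale (adjusted p = 1.91e-07).

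A second Il15 probe (ILMN_2938704) gave the same order, with signals of 220.7 to 243.1 in control, 69.6 to 88.9 after CCN2 and 135.3 to 176.0 after GDF15, and log2 differences of -1.57 and -0.57 from control (adjusted p = 3.8e-10 and 0.000361). Another, dimmer probe (ILMN_1219869) lay at 71.9 to 90.0, 45.4 to 57.1 and 62.6 to 75.1 in control, CCN2 and GDF15. It fell by 0.83 after CCN2 (adjusted p = 0.000144), while its difference of -0.36 after GDF15 missed the threshold (adjusted p = 0.107). The remaining 2 Il15 probes were detected on no array.

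Il15ra, the chain that holds IL-15 at the cell surface, was highest in the CCN2 group, opposite to its ligand. Its brightest probe (ILMN_1249759) gave signals of 46.9, 58.2, 51.4 and 60.6 in control, 56.6, 55.5, 66.8 and 63.5 after CCN2, and 47.6, 55.7, 47.4 and 52.4 after GDF15. The raw signals overlap between groups. An exact two-sided permutation test of their means gave p = 0.171 for CCN2 against control and p = 0.0571 for GDF15 against CCN2. On normalized values every CCN2 array lay above every other array. The log2 difference was 0.47 after CCN2 (SE 0.12, adjusted p = 0.00393), which became 0.28 (adjusted p = 0.0748) when arrays were scaled to their medians in place of quantile normalization. After GDF15 it was -0.15 (95% confidence interval -0.40 to 0.11, adjusted p = 0.467), and GDF15 differed from CCN2 by -0.61 (SE 0.12, adjusted p = 0.000589). A second probe (ILMN_1220603) was detected on the 4 CCN2 arrays, at 48.1 to 52.6, and on none of the other 8. It lay at 39.5 to 45.1 in control and 38.6 to 41.8 after GDF15, below every CCN2 array. It passed the detection filter only through the CCN2 arrays, so it had to differ there and its test is not given. The 3 other Il15ra probes were detected on no array.

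**Figure D2:**
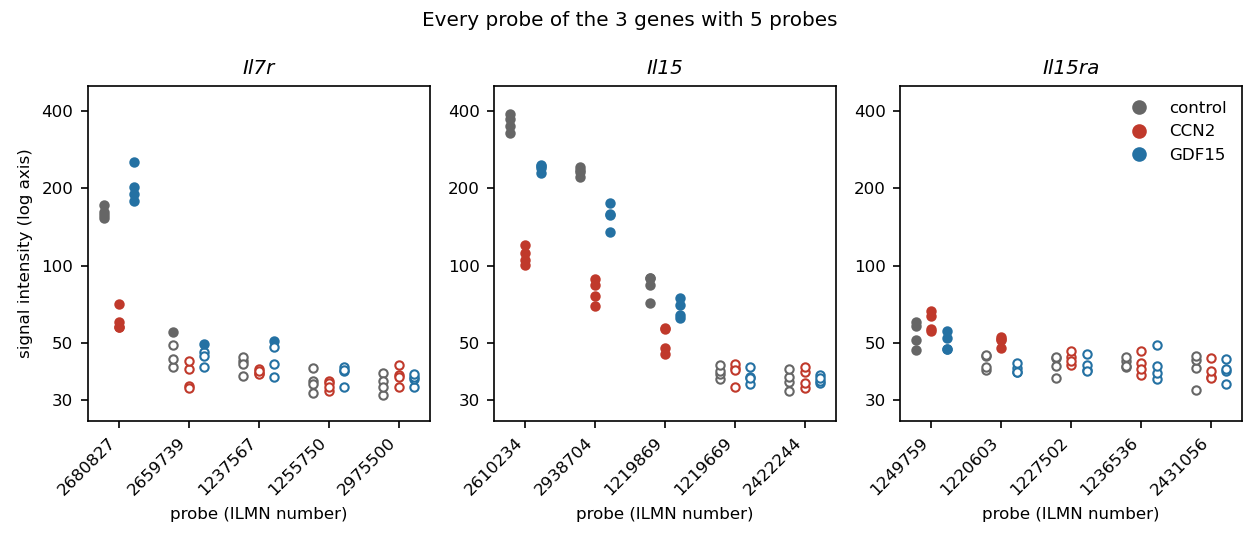
Signal intensity (non-normalized, log axis) on each of the 12 arrays for every probe of the 3 genes with 5 probes, Il7r, Il15 and Il15ra. Points are arrays, filled where the probe was detected and open where it was not. The 3 detected Il15 probes share the order control, GDF15, CCN2 from high to low, whereas for Il7r a single probe stands above the undetected range in all groups.

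Il10ra, the ligand-binding chain for IL-10, fell after both treatments. Its probe (ILMN_1219946) gave signals of 70.1, 91.6, 90.5 and 82.2 in control, 45.5, 55.2, 47.6 and 48.9 after CCN2, and 58.7, 57.8, 58.2 and 71.2 after GDF15. The CCN2 arrays lay below all others, and 1 GDF15 array reached the lowest control array on the raw scale. The log2 difference from control was -0.95 after CCN2 (SE 0.12, adjusted p = 2.51e-06), or 1.93-fold lower, and -0.59 after GDF15 (SE 0.12, adjusted p = 0.00148). The treatments differed by 0.36 with normalized values that overlap (SE 0.12, adjusted p = 0.0189). This last call was lost without CCN2 array 1 (adjusted p = 0.0722), GDF15 array 1 (adjusted p = 0.0582) or GDF15 array 4 (adjusted p = 0.0536).

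Il10rb, the shared chain of the IL-10, IL-22 and lambda interferon receptors, gave different answers from its 2 tested probes. The brighter probe (ILMN_1250260) gave signals of 501.5, 594.4, 527.8 and 606.7 in control, 409.0, 347.6, 367.3 and 390.9 after CCN2, and 422.7, 541.7, 477.3 and 626.1 after GDF15. The CCN2 arrays lay below all others, while control and GDF15 overlapped widely. The log2 difference was -0.32 after CCN2 (SE 0.085, adjusted p = 0.00497) and -0.11 after GDF15 (95% confidence interval -0.29 to 0.07, adjusted p = 0.433). GDF15 differed from CCN2 by 0.21 (SE 0.085, adjusted p = 0.0614), which passed the threshold in 7 of 21 alternatives. The dimmer probe (ILMN_1256085) ranged over 52.4 to 75.3, 54.7 to 61.8 and 64.7 to 76.2 in control, CCN2 and GDF15. Its differences were 0.11 after CCN2 (adjusted p = 0.478) and 0.31 after GDF15 (adjusted p = 0.0822), so the fall of Il10rb rests on 1 of its 2 tested probes. On the dimmer probe GDF15 differed from CCN2 by 0.20 (adjusted p = 0.197).

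Il17ra, the common chain of the IL-17 receptors, was the gene of the set with no call in any comparison. Its probe (ILMN_2655024) gave signals of 62.2, 78.4, 77.2 and 69.3 in control, 66.3, 55.2, 58.8 and 46.2 after CCN2, and 68.7, 65.6, 69.8 and 83.3 after GDF15. CCN2 arrays were mostly low and overlapped both other groups. The log2 difference was -0.31 after CCN2 (95% confidence interval -0.64 to 0.02, adjusted p = 0.108) and 0.06 after GDF15 (95% confidence interval -0.27 to 0.39, adjusted p = 0.832). GDF15 differed from CCN2 by 0.37 (SE 0.16, 95% confidence interval 0.04 to 0.70, adjusted p = 0.0651). The CCN2 difference from control passed the threshold without CCN2 array 1, at -0.44 (adjusted p = 0.0210), and with median scaling, at -0.51 (adjusted p = 0.00747), and it was -0.14 without CCN2 array 4 (adjusted p = 0.395). The difference between the treatments passed with median scaling, at 0.49 (adjusted p = 0.0140), without CCN2 array 1, at 0.51 (adjusted p = 0.0129), without GDF15 array 2, at 0.45 (adjusted p = 0.0411), and with the odd or even title number of the array as a covariate (adjusted p = 0.0334). Its value was 0.21 without CCN2 array 4.

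**Figure D3:**
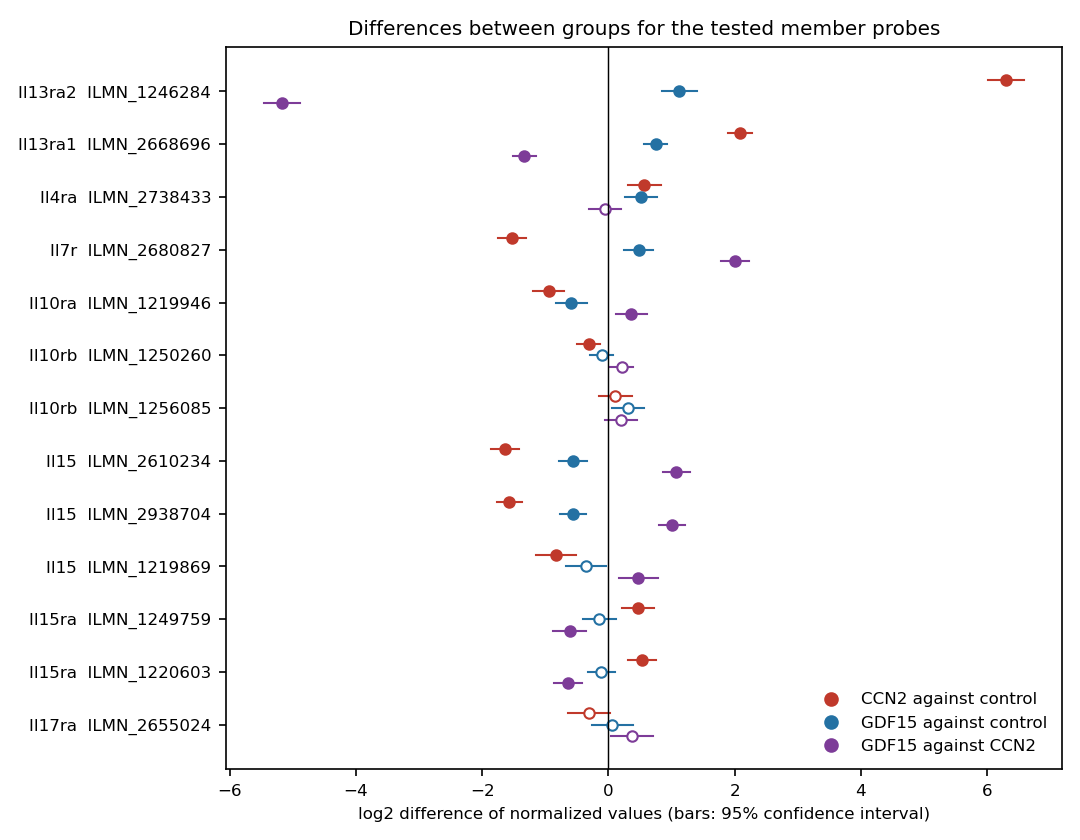
Log2 difference of normalized values for each of the 13 tested probes (rows) in the 3 comparisons, with 95% confidence intervals as bars. Filled points passed an adjusted p of 0.05 and open points did not. The second Il15ra probe (ILMN_1220603) passed the detection filter only through the CCN2 arrays. Its filled points therefore had to differ and are no test. The Il13ra2 points against control, and the points of the second Il15ra probe, are fitted values against groups where the probe was undetected and are no measure of the fold. Il7r has filled points on opposite sides of 0 for CCN2 and GDF15.

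Transcripts known as markers of leukocytes and vascular cells were also detected, and many of them moved with the groups. For the counts here and in the lists below, the shares over all genes were 25.7% higher and 30.2% lower after CCN2. After GDF15 they were 9.76% higher and 12.7% lower. The fibroblast marker Pdgfra was detected on all arrays and was not called in any comparison, while 6 of 11 fibroblast markers fell after CCN2 and 3 after GDF15. Of 16 tested macrophage markers, 12 fell and 1 rose after CCN2, and 8 fell and 1 rose after GDF15. Their summed values after background correction and quantile normalization were 36171 to 39754 on control arrays, 12148 to 13444 on CCN2 arrays and 30018 to 32361 on GDF15 arrays. Such sums add different probes, so the brightest weigh most. Of 7 pan-leukocyte markers, 5 fell after CCN2, and after GDF15 4 fell and 1 rose. Of 6 tested endothelial markers, 6 fell after CCN2 and 1 after GDF15, and of 6 pericyte and smooth muscle markers, 5 fell after CCN2 and 3 after GDF15. The T and NK cell markers Cd3d, Cd2, Cd8a, Ncr1, Klrb1c and Nkg7 were detected on no array, and of 11 such markers only Cd3e and Cd247 were tested, neither of them called against control. Il15, Il10ra and, after CCN2, Il7r fell in the same arrays as these markers, and the part of those cell types in the falls was not tested. Of 3 tested neutrophil markers, 2 rose after CCN2 and 1 after GDF15. Their summed values were 40.8 to 53.1 on control, 1398 to 1543 on CCN2 and 383 to 456 on GDF15 arrays. S100a8, a calcium-binding protein abundant in neutrophils, rose by 5.09 and 3.25 on the log2 scale (adjusted p = 1.69e-17 and 3.44e-14). It had the order of groups of Il13ra2 and Il13ra1 and was the only 1 of the 3 that rose after GDF15. S100a9 and Cxcr2 were detected on no array, Elane on 1 and Mpo on 5 by their best probes, and Csf3r was not called. Of 2 tested markers of type 2 innate lymphoid cells, Rora rose after CCN2 and none rose after GDF15. Their sums were 273 to 315, 424 to 440 and 246 to 299 in control, CCN2 and GDF15. Of the other markers in this list, Gata3 was detected on 1 array by its best probe and Il17rb on none. Icos, the other tested marker, was detected on 4 arrays, and Areg and Il1rl1 had no named probe. Neither the presence of neutrophils or type 2 innate lymphoid cells nor their part in the rise of the IL-13 receptor chains was tested. The few tested markers of dendritic cells, B cells, mast cells and cardiomyocytes included 1 of 2, 1 of 1, 2 of 4 and 2 of 2 that fell after CCN2. In such cultures fewer cells of a type and less RNA per cell cannot be told apart.

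The ligands and partner chains of the type 2 and gamma chain receptors were mostly dim, and 9 of the 19 with a named probe were tested. Of these 9, 2 rose and 2 fell after CCN2, and 3 rose and none fell after GDF15, with medians of 0.13 and 0.18 on the log2 scale. The CCN2 median was 0.06 with genes undetected in a group set at their bound. Il33, an alarmin that activates type 2 innate lymphoid cells, fell by 2.34 on the log2 scale after CCN2 (SE 0.12, adjusted p = 4.66e-11) and was 0.98 higher after GDF15 (SE 0.12, adjusted p = 1.56e-05), the same pair of directions as Il7r. Tslp, an epithelial cytokine whose receptor includes Il7r, rose by 0.76 after CCN2 (SE 0.18, adjusted p = 0.00226), with a difference of -0.08 after GDF15 (adjusted p = 0.81). Csf2rb2, the mouse IL-3 receptor beta chain, fell by 0.68 after CCN2 (adjusted p = 0.00016). Il7, the ligand of Il7r, was looked at after its values were seen and rose by 0.62 after CCN2 (adjusted p = 0.000146) and 0.93 after GDF15 (adjusted p = 9.29e-06). Il4 was detected on no array. Il13 was detected on 3 control, 3 CCN2 and 1 GDF15 arrays and was not called against control.

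Of 7 tested ligands and chains of the IL-10, IL-22 and interferon receptor family, 4 rose and 1 fell after CCN2, with a median of 0.36. After GDF15, 1 rose and none fell, with a median of 0.08, and 1 fell when GDF15 array 3 was left out. Il19, an IL-10 family cytokine, was detected on CCN2 arrays alone and passed the filter only through them, so it had to differ. Without it, a count added after the data were seen, 3 of 6 rose and 1 fell after CCN2. Ifnar2, a chain of the type I interferon receptor, rose by 1.42 after CCN2 (adjusted p = 1.23e-08) and 0.77 after GDF15 (adjusted p = 9.06e-05). Il20rb, a receptor chain for IL-19 and IL-20, rose by 0.83 after CCN2 (adjusted p = 2.45e-06).

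In the IL-17 family, 5 ligands, receptors and adaptors were tested, and 2 rose and 2 fell after each treatment. Traf3ip2, the adaptor that links IL-17 receptors to NF-kB, rose by 2.06 after CCN2 (SE 0.11, adjusted p = 7.43e-11) and by 0.79 after GDF15 (SE 0.11, adjusted p = 6.08e-05). The cytokine Il17d fell by 1.70 (adjusted p = 1.82e-11) and 0.69 (adjusted p = 1.08e-05). Il17rc, which pairs with Il17ra, rose by 0.60 after CCN2 (adjusted p = 8.29e-05) and 0.34 after GDF15 (adjusted p = 0.0244). The GDF15 counts each became 1 without any of control arrays 2, 3 and 4 or GDF15 arrays 1 and 3, and the count of falls also without GDF15 array 2 or 4.

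JAK kinases, STAT factors and their inhibitors moved in both directions. Of 25 tested, 8 rose and 7 fell after CCN2 (median 0.06), and 4 rose and 4 fell after GDF15 (median 0.15). Over all genes 25.7% rose and 30.2% fell after CCN2, and 9.76% rose and 12.7% fell after GDF15. The mix of directions is therefore not particular to this list. The count of 8 became 5 without control array 2 and with median scaling. Jak2, a kinase bound by many cytokine receptors, rose by 3.39 after CCN2 (SE 0.099, adjusted p = 2.15e-14) and 1.18 after GDF15 (adjusted p = 1.6e-07). Stat2, a factor of interferon signalling, rose by 0.81 (adjusted p = 5.59e-06) and 0.74 (adjusted p = 6.46e-05). Pias1, a SUMO ligase, fell by 0.83 (adjusted p = 9.14e-07) and 0.38 (adjusted p = 0.00834). Stat6, the factor of IL-4 and IL-13 signalling, was looked at for that role after its values were seen, and its differences of 0.06 and 0.24 passed in neither comparison (adjusted p = 0.647 and 0.129).

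Genes that these cytokines are known to induce or repress in mouse cells did not move alike. Of 12 tested IL-4 and IL-13 responsive genes, 5 rose and 6 fell after CCN2 (median -0.14), and 9 rose and none fell after GDF15 (median 0.49). The eotaxin Ccl11 rose by 3.62 after CCN2 and 1.46 after GDF15 (SE 0.13, adjusted p = 1.87e-13 and 2.02e-07). The monocyte chemokine Ccl7 rose by 2.75 and 1.76 (adjusted p = 5.02e-13 and 2.16e-09), and Ccl8 by 1.32 and 1.58 (adjusted p = 1.07e-09 and 1.26e-09). The genes that fell after CCN2 include the macrophage lectins Mgl2 and Clec10a, which were picked for mention once their values were known. The brightest tested Mgl2 probe had a difference of -1.16 and was detected on 1 CCN2 array. Another Mgl2 probe was detected on all 12 arrays, and its difference is not given. Clec10a, its brightest tested probe detected on no CCN2 array, was at least 1.47-fold lower than in control. The adjusted p of its fitted difference, not of this limit, was 2.7e-05.

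Of 15 tested IL-17A responsive genes, 15 rose after CCN2 (median 3.54) and 13 after GDF15 (median 1.17), and none fell. Il17a was detected on 1 array by its best probe and Il17f on none, and whether IL-17A acted in these cultures was not tested. The neutrophil chemokine Cxcl2, detected on 1 of 4 control arrays, rose by 8.11 after CCN2 and 2.76 after GDF15 (SE 0.15, adjusted p = 1.01e-16 and 9.54e-10). The siderophore-binding protein gene Lcn2 rose by 6.72 and 3.55 (SE 0.20, adjusted p = 3.37e-14 and 1.65e-09). Csf2 and Csf3, growth factors of granulocytes and macrophages, were detected on CCN2 arrays alone and passed the filter only through them, so they had to differ. Without both, 13 of 13 rose after each treatment, with medians of 3.40 after CCN2 and 1.53 after GDF15. These values were also added after the data were seen. Of 7 tested IL-10 responsive genes, 4 rose and 2 fell after CCN2 (median 0.79), and 6 rose and none fell after GDF15 (median 0.66). The count of 2 became 1 without control array 3 or CCN2 array 2 or 3. The IL-1 receptor antagonist Il1rn rose by 2.37 and 1.81 (adjusted p = 7.55e-12 and 2.83e-09), the stress-induced mTOR inhibitor Ddit4 by 1.88 and 0.62 (adjusted p = 1.75e-12 and 1.53e-05), and the NF-kB cofactor Bcl3 by 1.74 and 0.86 (adjusted p = 9.89e-10 and 3.14e-05).

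**Figure D4:**
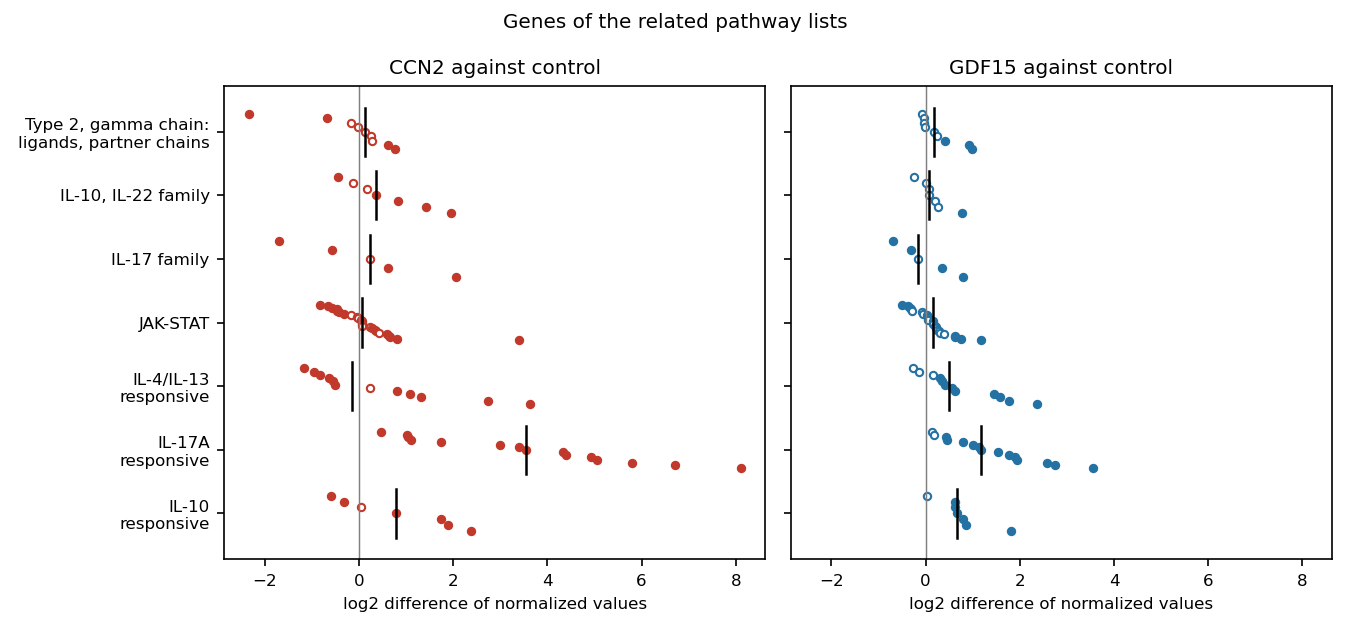
Log2 difference from control of each tested gene of 7 lists related to the receptors, after CCN2 (left) and GDF15 (right). Filled points passed an adjusted p of 0.05, open points did not, and the vertical bar is the list median. IL-17A responsive genes lie to the right of 0 after CCN2, and 13 of 15 were called higher after GDF15, with medians of 3.54 and 1.17. Csf2, Csf3 and Il19 are plotted although they passed the filter only through the CCN2 arrays. Without Csf2 and Csf3 the IL-17A medians were 3.40 and 1.53. IL-4 and IL-13 responsive genes lie on both sides after CCN2.

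For each receptor gene, the genes with the most similar pattern over the 12 arrays were found by the root mean square (RMS) difference of log2 values, each relative to its own control mean, among 10737 genes. This is a description of these arrays, and the points share the group differences. For Il13ra2 they were the cystine transporter Slc7a11, Csf2 and the cytokine Il1a, at RMS differences of 0.68, 0.69 and 0.72, where the gene's own RMS change was 3.70. For Il13ra1 they were the NF-kB inhibitor partner Tnip1, the transporter Slc2a6 and the cytokine Osm, at 0.125, 0.130 and 0.137. For Il7r they were the growth factor Tgfb2 at 0.177, Gldc at 0.197 and Fads6 at 0.212, and Tgfb2 differed from control by -1.42 after CCN2 and 0.30 after GDF15. For Il15 they were Camk1, the lysosomal protease Lgmn and St3gal6, at 0.107 to 0.117. For Il10ra they were Cx3cl1, Dapk1 and Zfp367, at 0.112 to 0.139.

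The dimmer or less changed genes had neighbours with small changes of their own. Il4ra was most like Bag2, Nsg1 and Ccnyl1, at RMS differences of 0.130 to 0.143, against its own RMS change of 0.472. Il10rb was most like Eml3, Rbbp9 and Cops9, at 0.0755 to 0.0818, against 0.209. Il15ra was most like Sccpdh, Efl1 and Kcnf1, at 0.127 to 0.141, against 0.328. Il17ra was most like Prpf39, Ptov1 and Dancr, at 0.131 to 0.162, against 0.293.

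The number of detected probes was 19211 to 19691 on control arrays, 18009 to 18979 on CCN2 arrays and 19004 to 19481 on GDF15 arrays. The third principal component, 4.51% of the variance, set arrays with odd title numbers above those with even numbers in every group. Within odd and within even arrays alone, the difference after CCN2 was 2.03 and 2.14 for Il13ra1, -1.64 and -1.41 for Il7r and -1.58 and -1.70 for Il15. It was less alike for Il17ra, at -0.05 and -0.57, and for the brightest Il15ra probe, at 0.62 and 0.31. With median scaling the share of called probes that rose after CCN2 was 26.7%, beside 48.6% in the main analysis, and 34.5% beside 46.7% after GDF15. In GDF15 against CCN2 it was 72.1% beside 49.9%.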

How the data were processed

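RNA of the 12 arrays was measured on Illumina bead arrays. Per the file headers, each array's deposited columns are probe signal intensity and its detection p-value. The submitters' processing notes name GenomeStudio 2010.1. Those intensities carry no scaling between arrays. The authors' deposited processed intensities were linear, quantile-normalized values, each array with a median of 42.4, which matched the mean of the sorted signals within 0.392%. No array pair held identical values.

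Intensities were background-corrected, quantile-normalized and put on a log2 scale with neqc (offset 16; limma 3.58.1, R 4.3.3). This offset understates differences of dim probes. Testing covered 20445 of 45281 probes, those detected (p-value under 0.05) on 4 or more of 12 arrays. lmFit and eBayes fitted group means over all arrays (9 residual degrees of freedom), two-sided, with Benjamini-Hochberg adjustment over all tested probes of a comparison. Groups came from the array titles, whose numbers run through all groups, so no pairing was used. The number of arrays limits the precision. Where a group had no detection of a probe, its difference is a bound, written "at least N-fold". An adjusted p given with such a bound is that of the fitted difference.

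Names came from the platform annotation: 34885 probes had 1 symbol, 18 several and 10378 none, and 34807 of the first matched the RefSeq gene table. The 10 genes were always named. From each list, the 3 genes with the largest CCN2 difference among those called in any comparison were named, and for each receptor gene the 3 most similar genes. The genes and lists were chosen with earlier results of these data known. Alternatives were no background correction, median scaling, the authors' values, an offset of 50, no or a stricter filter (0.01), pairwise fits, another probe, a title-number covariate, array weights and leaving out each array. No promoter window was available for Il10ra, Il10rb, Il15 and Il17ra, so these genes were not searched for motifs.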

Additional observations from a re-analysis of the deposited data

Results flagged for a closer look

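Il7r (ILMN_2680827) on CCN2 array 2 stood apart from the other 3 CCN2 arrays. Its signal was 70.7 where the others were 57.6 to 60.6, and the gap to the nearest array took up 0.851 of the group's range on the log2 scale, above the 0.829 allowed for 4 arrays. Of 39 groups of 4 arrays examined this was the only 1 to stand apart, and chance alone gives about 1 in 20. Without this array the difference of Il7r after CCN2 was -1.63.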

How the results depend on the processing

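Of the alternatives run on the 13 tested probes in 3 comparisons, 793 kept the call and none reversed it, while 17 gained and 6 lost it. The count of the 9 genes lower in GDF15 than in control was 1 in place of 2 when the dimmest tested probe stood for each gene, since the dimmest Il15 probe misses the threshold. The count higher in GDF15 than in CCN2 was 5 in place of 3 with median scaling and also 5 with the parity of the title number as a covariate, each adding Il10rb and Il17ra, and 2 to 4 when an array was left out. Leaving out an array gave 4 to 5 genes lower in CCN2 than in control, and left the other counts at 4 higher in CCN2, 4 higher and 2 lower in GDF15 than in control, and 3 lower in GDF15 than in CCN2. Median scaling shifted the median of all probes by -0.17 for CCN2 and -0.052 for GDF15 against control and by 0.12 for GDF15 against CCN2. Relative to that shift Il15ra differed by 0.45 and Il17ra by -0.34 after CCN2. Differences of dim probes shrank with an offset of 50: Il10ra after CCN2 from -0.95 to -0.51 and Il4ra after CCN2 from 0.57 to 0.34. The Il15 probe ILMN_1219869 lost its GDF15 against CCN2 call without the detection filter (adjusted p = 0.0597) and without CCN2 array 4 (adjusted p = 0.0600). Il17rc lost its GDF15 call in 6 alternatives. The stricter filter dropped Il15ra probe ILMN_1220603. The counts of genes in the lists kept within 1.5 times in 858 of the alternatives and moved further in 66. No paired analysis was possible because no title number is shared between groups.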
